A study of Mus musculus with 3 samples.

Results

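The mitochondrial ribosomal protein genes are the nuclear genes that encode the proteins of the ribosome inside mitochondria. They were taken as every protein-coding gene whose symbol starts with Mrpl or Mrps followed by a digit in the GENCODE mouse annotation, which gave 78 genes among the 50600 gene identifiers of the deposited tables (21764 of them protein-coding). By symbol, 49 belonged to the large subunit (Mrpl) and 29 to the small subunit (Mrps). RNA of mouse regulatory T cells was sequenced in 3 libraries, which the labels number as biological replicates 2, 3 and 4. All are primary cells of strain C57BL/6NJ with no further genotype or treatment label. The file headers add that the cells had been activated for 16 hours, and the linked differentiation protocol is named for CD4 T cells. The libraries form 1 group with no control, so levels are described within the group and compared between genes and between libraries.

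Mitochondria keep their own ribosome, which translates the few proteins encoded by the mitochondrial genome, all of them parts of the oxidative phosphorylation complexes. Its ribosomal RNAs come from the mitochondrial genome, whereas all of its proteins are made in the cytosol from nuclear genes and imported. Many of the proteins descend from those of the bacterial ribosome, and others are found only in the mitochondrial particle. T cells enlarge their mitochondria and depend on mitochondrial translation as they become activated, and regulatory T cells are known for their reliance on oxidative metabolism.

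The libraries held 41222058, 47665060 and 99097524 counted fragments in replicates 2, 3 and 4. Markers of regulatory T cells and of T cells were present (Foxp3 at 80.9 ± 3.97 TPM, Il2ra at 658 ± 23.3 and Cd4 at 591 ± 17.9; SD, n = 3), while Ikzf2 was at 3.22 ± 0.66. TPM is the fragment count per base of exon, scaled to the same total in each library. The summed level was 1.88 to 2.07 TPM for 3 B cell markers, 0 to 0.10 for 3 macrophage markers and 0 for 2 neutrophil markers, and 24.4 to 29.0 for the 2 CD8 T cell markers, nearly all of it Cd8b1. The labels give all libraries the same donor identifier and no sex, yet Xist was at 126, 0.331 and 36.1 TPM and the Y-linked Ddx3y at 0.126, 39.3 and 28.4 TPM in replicates 2, 3 and 4. Replicates 2 and 3 thus differed in sex-linked RNA in a way that a single animal would not give. Replicate 4 held both RNAs, each at a level between those of the other libraries. The part of these differences in the values below was not tested. How many animals gave each library is not stated, so every SD is the spread between these libraries, in which animal and technical parts cannot be told apart.

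The 78 genes were spread over 17 chromosomes, with 11 of them on chromosome 11 and 8 on chromosome 17. A feature that many shared was a divergent neighbour: 20 of 78 (25.6%) started within 1000 bases of an opposite-strand gene pointing away, against 10.5% of all protein-coding genes and 17.3% of the expressed ones (1 TPM or more in all 3 libraries). Where overlapping 5′ ends were counted as well, the share was 35 of 78 (44.9%), against 17.5% of protein-coding genes and 27.8% of the expressed ones. Of the 20 neighbours, 18 were protein-coding. The 6 closest pairs were Mrps21 with the antisense gene C920021L13Rik (starts 3 bases apart), Mrpl54 with Apba3 (26), Mrps34 with Eme2 (29), Mrps18c with Helq (29), Mrps18b with Ppp1r10 (45) and Mrpl30 with Mitd1 (66). In all 6 the mitochondrial ribosomal protein gene had the higher level: Mrps21 was at 157 ± 6.39 TPM and C920021L13Rik at 0.23 ± 0.31, Mrpl54 at 180 ± 7.27 and Apba3 at 49.3 ± 3.67, and Mrps34 at 110 ± 5.60 and Eme2 at 13.1 ± 0.85. Mrps18c was at 64.5 ± 8.52 TPM beside Helq at 28.0 ± 1.58. Mrps18b, at 107 ± 4.29, was nearest to its neighbour's level (Ppp1r10, 81.3 ± 3.72), and Mrpl30 was at 96.6 ± 1.69 beside Mitd1 at 20.2 ± 1.35.

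A few of the other pairs are given here, chosen after their values were seen, and they do not stand for all 20 neighbours. Mrpl43 (145 ± 7.80 TPM) lay 116 bases from Twnk (59.2 ± 3.83), which encodes the helicase of mitochondrial DNA replication. Mrps12 (176 ± 5.04) lay 172 bases from Sars2 (40.2 ± 4.29), which encodes the mitochondrial seryl-tRNA synthetase. Mrps27 (128 ± 8.05) lay 108 bases from Ptcd2 (129 ± 3.83), and both encode proteins with pentatricopeptide repeats, a fold that binds RNA. In 2 pairs the neighbour was far higher: Fau, the gene of a cytosolic ribosomal protein, was at 1726 ± 193 TPM beside Mrpl49 at 112 ± 7.58, and Psma2, a proteasome subunit gene, was at 813 ± 46.9 TPM beside Mrpl32 at 109 ± 4.88. Across the 18 coding pairs the levels of the 2 genes had a Spearman correlation of 0.27, a description over pairs measured in the same libraries.

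Promoter windows of RefSeq (build GRCm38.p6, 250 bases before to 50 after the gene's start) were found for 69 of the 78 genes and searched on both strands for exact letters. The 10-letter core of the site of NRF1, a regulator of nuclear genes of mitochondrial function, was in 13 of 69 windows (18.8%), against 6.84% of 16469 windows of all protein-coding genes with an entry and 12.3% of the 7981 windows of expressed genes. The letters CCGGAAG, the core bound by ETS factors such as GABP, were in 25 (36.2%), against 12.5% and 21.9%. The letters AAGATGGCG, a YY1 core, were in 8 (11.6%), against 2.08% and 3.96%. At least 1 of the 3 was in 40 of 69 windows (58.0%), against 19.4% of all and 34.2% of expressed genes. The cytosolic ribosomal protein genes held the ETS letters as often (24 of 64 windows, 37.5%), the NRF1 core in 7.81% and the YY1 letters in 6.25%. The E-box CACGTG, which MYC binds, was in 5 windows (7.25%), against 8.09% of all. Each share was above both references for the first 3 motifs. That of the E-box rests on 5 windows and was near the share of all genes. It was 10.9% in expressed genes and 7.81% in cytosolic ribosomal protein genes. Among general promoter letters, the GC box GGGCGG was in 47.8% of the members' windows, against 48.6% of all and 68.5% of expressed genes, CCAAT in 39.1%, against 38.5% and 39.5%, and TATAAA in 5.80%, against 12.9% and 6.06%. The median level was 96.6 TPM for genes with the NRF1 letters and 90.8 for those without. It was 62.0 TPM with the ETS letters and 103 without, and 78.5 with the YY1 letters and 94.5 without. Whether the letters bear on the level was not tested. A match describes the letters and is no evidence of binding.

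The sequences below show these letters in capitals at the gene with the highest level of all (Mrpl12) and between the starts of 4 divergent pairs, where the same few bases lie upstream of both genes. They were picked for holding the letters: of 11 stretches between coding pairs that the windows covered, 5 held NRF1, ETS or YY1 letters and 6 held none. They read 5′ to 3′ along the strand of the Mrp gene, at chr11:120484387-120484612 (plus strand), chr13:14613038-14613241 (minus), chr19:45006443-45006557 (minus), chr13:99344679-99344785 (plus) and chr5:100798599-100798626 (plus).
Mrpl12, NRF1 letters: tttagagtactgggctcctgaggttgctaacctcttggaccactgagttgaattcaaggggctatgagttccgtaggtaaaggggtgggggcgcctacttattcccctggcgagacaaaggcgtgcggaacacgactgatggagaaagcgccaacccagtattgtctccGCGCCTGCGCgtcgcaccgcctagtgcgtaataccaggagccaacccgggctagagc
Mrpl32 and Psma2, NRF1 letters: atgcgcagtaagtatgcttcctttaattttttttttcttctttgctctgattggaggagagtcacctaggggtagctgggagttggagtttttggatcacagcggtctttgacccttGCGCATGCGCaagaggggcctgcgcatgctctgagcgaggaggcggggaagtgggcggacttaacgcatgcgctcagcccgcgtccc
Mrpl43 and Twnk, ETS letters: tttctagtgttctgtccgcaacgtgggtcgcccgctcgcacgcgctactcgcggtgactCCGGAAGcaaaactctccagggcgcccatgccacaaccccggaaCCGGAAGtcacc
Mrps27 and Ptcd2, ETS letters on the other strand: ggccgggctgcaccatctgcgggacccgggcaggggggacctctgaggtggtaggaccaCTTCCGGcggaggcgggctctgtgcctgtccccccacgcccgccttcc
Mrps18c and Helq, ETS letters on the other strand: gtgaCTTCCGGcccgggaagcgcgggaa
The stretch between Mrpl43 and Twnk holds the ETS letters at 2 places. In the shortest, 28 bases lie between the transcribed parts of Mrps18c and Helq.

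Nearly all of these genes were transcribed at a middle to high level. In every library, 77 of 78 were at 1 TPM or more, against 45.6% of all protein-coding genes; 76 were at 10 TPM or more, against 34.8%, and 34 were at 100 TPM or more, against 8.80%. The median over the 78 genes of the mean TPM was 90.8 (93.4, 89.6 and 91.6 in replicates 2, 3 and 4), and that of the 9926 expressed protein-coding genes was 32.3. The quartiles of the 78 were 44.7 and 141 TPM, and 45 lay within 2-fold of the median. Summed, they took 8080, 8403 and 8212 TPM, or 0.82% ± 0.02 of the total (SD, n = 3). The 84 genes of the cytosolic ribosome had a median of 1066 TPM, 11.7 times as high, and took 12.6%, 13.5% and 12.8% of the total.

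The levels differed more among the 78 genes than between libraries. The interquartile range of log2(TPM + 1) was 1.67 ± 0.04 over the 78 genes, 1.90 ± 0.05 over cytosolic ribosomal protein genes and 2.68 ± 0.03 over all expressed protein-coding genes. Of all 3003 pairs of members, 2814 (93.7%) had ranges over the 3 libraries that did not overlap. Next to each other in the order of levels, however, 67 of the 77 neighbouring pairs overlapped, so single steps in the order are mostly not resolved.

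**Figure D1:**
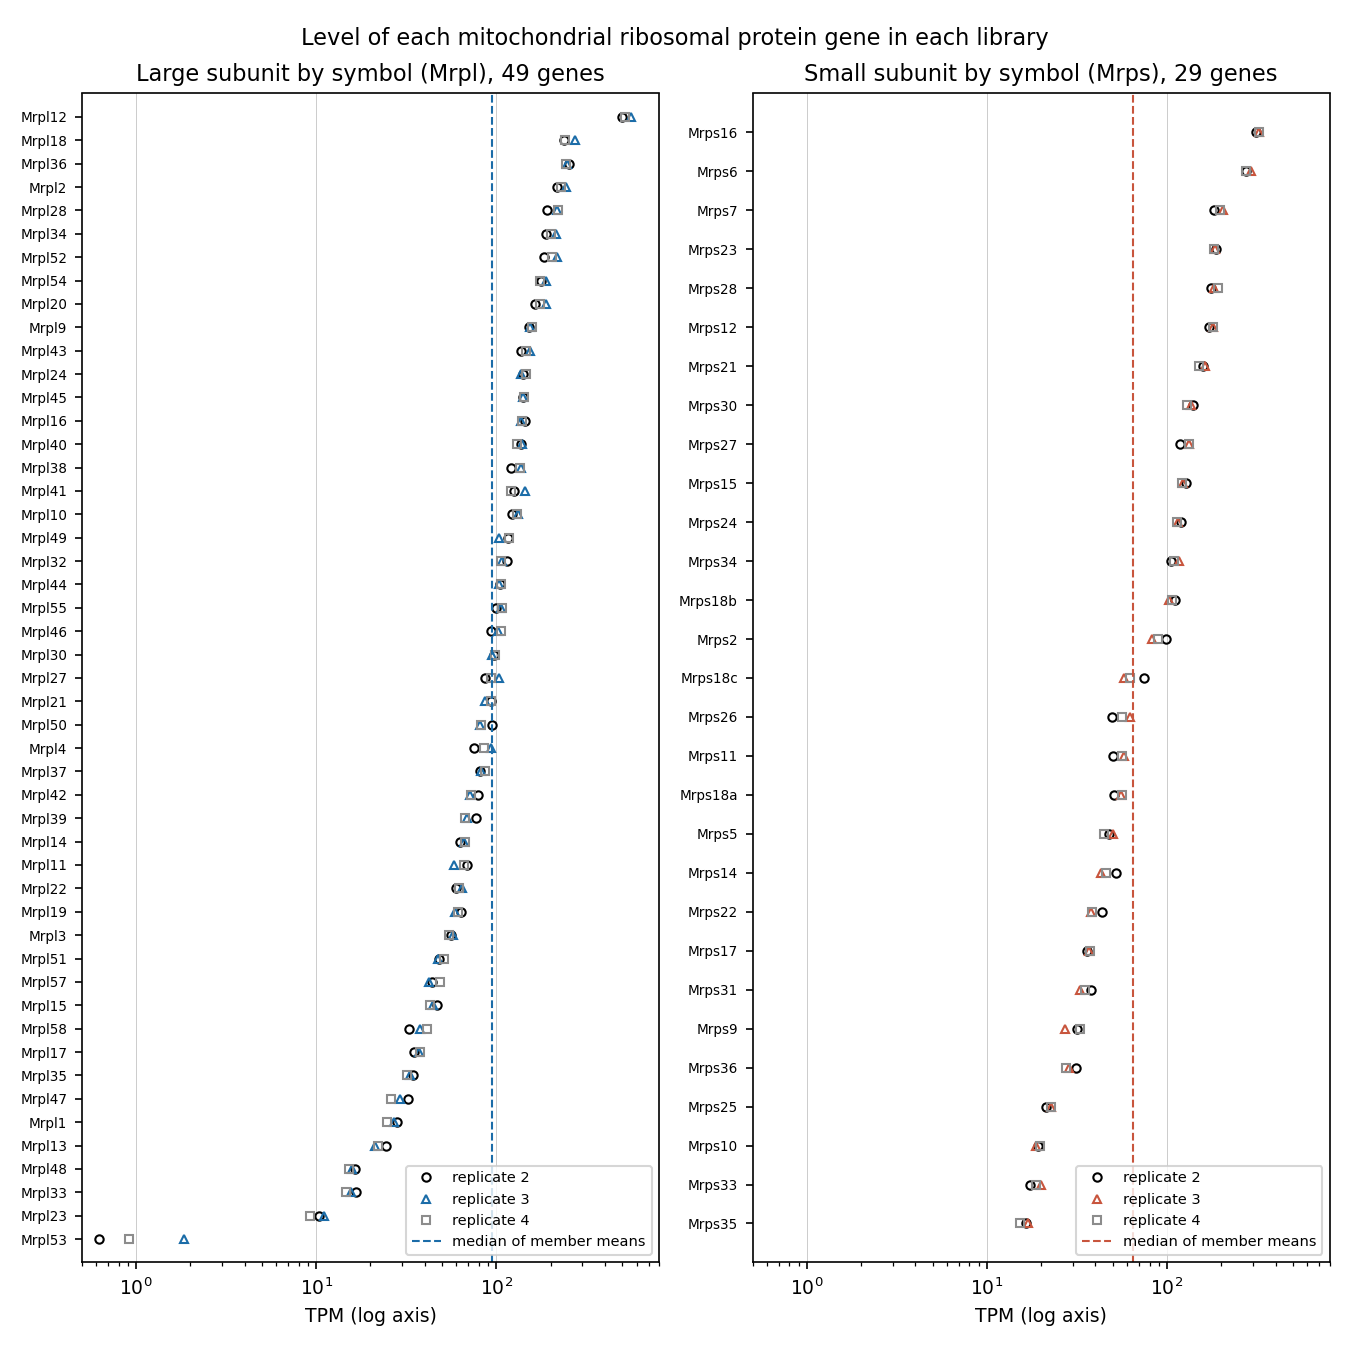
Level in TPM (log axis) of the 49 Mrpl genes (left) and 29 Mrps genes (right) in each library, replicates 2 (circles), 3 (triangles) and 4 (squares); the dashed line is the median of the gene means. Mrpl12 stands at the top at 496 to 562 TPM and Mrpl53 at the bottom at 0.62 to 1.85, and the 3 libraries of nearly every other gene lie close together.

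The large subunit builds the peptidyl transferase centre and the exit tunnel, and its stalk recruits the translation factors. Mrpl12, the stalk protein that is present in several copies per ribosome, was at 496, 562 and 517 TPM in replicates 2, 3 and 4. Its mean of 525 ± 33.5 TPM was 1.65 times that of the next gene, Mrps16, and its lowest library lay above every library of the other 77 genes. It alone made up 9.80% of the summed level of the large subunit. Mrpl10, which anchors Mrpl12 to the ribosome, was at 121, 132 and 130 TPM, and Mrpl11, at the base of the stalk, at 68.9, 57.9 and 65.9 TPM. The 3 stalk genes thus held separate levels that did not overlap in any library.

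Below Mrpl12, the highest genes of the large subunit were Mrpl18 at 251 ± 19.3 TPM, Mrpl36 at 248 ± 4.73, Mrpl2 at 230 ± 13.7, Mrpl28 at 210 ± 15.2 and Mrpl34 at 202 ± 12.9. Mrpl18 and Mrpl36 encode counterparts of bacterial proteins that bind ribosomal RNA, and Mrpl2 the counterpart of a protein near the peptidyl transferase centre. All 6 of these highest genes have a bacterial counterpart. Mrpl18 was at 239, 273 and 241 TPM and Mrpl36 at 252, 248 and 243 TPM, so these 2 could not be ordered.

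Around the exit tunnel, through which the growing protein leaves, Mrpl24 was at 140, 137 and 146 TPM, Mrpl22 at 59.8, 64.3 and 61.9, and Mrpl23 at 10.3, 11.0 and 9.27. Mrpl45, which ties the ribosome to the inner membrane, was at 141, 140 and 143 TPM and was among the steadiest of the 78, with a coefficient of variation (SD over mean) of 0.98%. Mrpl58, a peptidyl-tRNA hydrolase built into the large subunit that frees stalled ribosomes, was at 32.6, 37.9 and 41.1 TPM. The low value of Mrpl23 is uncertain, since a pseudogene copies its whole coding sequence and its mean was 50.7 TPM per base of the principal transcript, the main coding transcript of the gene, where Mrpl22 was at 59.2 and Mrpl24 at 167.

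The lowest genes of the large subunit were Mrpl1 (26.6 ± 1.72 TPM), Mrpl13 (22.5 ± 1.71), Mrpl48 (15.8 ± 0.56), Mrpl33 (15.7 ± 1.04), Mrpl23 (10.2 ± 0.89) and Mrpl53 (1.13 ± 0.64). Mrpl53, a mitochondria-specific protein, was the only one of the 78 under 1 TPM in any library, with 6, 21 and 21 fragments and 0.62, 1.85 and 0.91 TPM. It lies at chr6:83109040-83109939, and 695 of its 790 exon bases (88.0%) are shared on the same strand with Gm42688, a protein-coding gene at 1.81, 2.71 and 1.98 TPM. Fragments that fall on bases of 2 genes are left out by the default of the counting program, so the level of Mrpl53 is uncertain. Same-strand sharing touched 7 other members, among them Mrps34 (37.0% of its exon bases, with Nme3), Mrps18c (23.2%) and Mrps6 (15.1%), or 8 of 78 in all, against 6.90% of protein-coding genes.

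The small subunit binds the messenger RNA and reads its codons. Its highest gene was Mrps16, at 310, 323 and 322 TPM, followed by Mrps6 at 275, 293 and 273, and both encode counterparts of bacterial proteins of the same subunit. Mrps7 (195 ± 11.4 TPM), Mrps23 (184 ± 2.57), Mrps28 (183 ± 9.06) and Mrps12 (176 ± 5.04) followed, and the ranges of Mrps7, Mrps23 and Mrps28 overlapped one another. Mrps12 encodes the protein of the decoding centre, and it was at 171, 180 and 179 TPM.

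At the lower end of the small subunit stood Mrps35 (16.2 ± 0.84 TPM), Mrps33 (18.7 ± 1.22), Mrps10 (19.2 ± 0.54), Mrps25 (22.1 ± 0.75), Mrps36 (29.1 ± 1.95) and Mrps9 (30.4 ± 3.05). Mrps36 is known today as a component of the 2-oxoglutarate dehydrogenase complex and is not seen in structures of the mitochondrial ribosome. No gene of the small subunit fell under 10 TPM in any library, whereas Mrpl23 and Mrpl53 of the large subunit did. The levels of both are uncertain for the reasons given above.

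The 3 Mrps18 paralogues sit at different places of the ribosome although they share an ancestor. Mrps18c encodes the counterpart of the bacterial protein, Mrps18b another small-subunit protein, and Mrps18a a protein of the large subunit. Mrps18a was at 50.6, 55.5 and 56.3 TPM, Mrps18b at 111, 103 and 106, and Mrps18c at 74.0, 57.5 and 62.1. Mrps18b was thus above both others in every library. This order rests on the merged exon length, which is 3690 bases for Mrps18a: per base of the principal transcript the means were 159 TPM for Mrps18a, 145 for Mrps18b and 76.6 for Mrps18c.

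The median of the large subunit lay above that of the small subunit when fragments were divided by merged exon length. The medians were 94.5 and 64.5 TPM, and the difference of medians on the log2(TPM + 1) scale was 0.33, 0.59 and 0.59 in replicates 2, 3 and 4 (mean 0.50 ± 0.15, SD, n = 3). With the subunits assigned by their place in structures (Mrps30 and Mrps18a to the large subunit, Mrps36 to neither), it was 0.28 ± 0.13 for 51 against 26 genes. The difference did not hold on another length scale. Per base of the principal transcript it was -0.20, 0.03 and -0.01, with a mean of -0.06 ± 0.12, and in CPM (counts scaled for library total, with no length) it was -0.0037 ± 0.12. The merged exon length was a median of 1.47 times the principal length in the small subunit and 1.21 times in the large one.

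Genes with a bacterial counterpart and mitochondria-specific genes had similar medians, 92.9 and 85.9 TPM, with a log2 difference of 0.12 ± 0.08 for 46 against 29 genes. Within the large subunit the difference was -0.12 ± 0.05 (30 against 19 genes). In the small subunit the genes with a bacterial counterpart stood higher in every library, by 0.99 or more (mean 1.10 ± 0.11, 16 against 10 genes, medians 103 and 48.0 TPM). Per principal transcript length this difference in the small subunit was smaller and of the same sign, 0.72 ± 0.01, while that in the large subunit was 0.07 ± 0.05. The classes follow the symbols, so Mrps30 (135 TPM), a large-subunit protein in structures, is counted among the 10. Small-subunit genes without an Mrp symbol are left out: Chchd1 (214 TPM), Aurkaip1 (167), Ptcd3 (61.4) and Dap3 (59.0), all above the median of 48.0. The difference with these genes placed by structure was not computed.

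**Figure D2:**
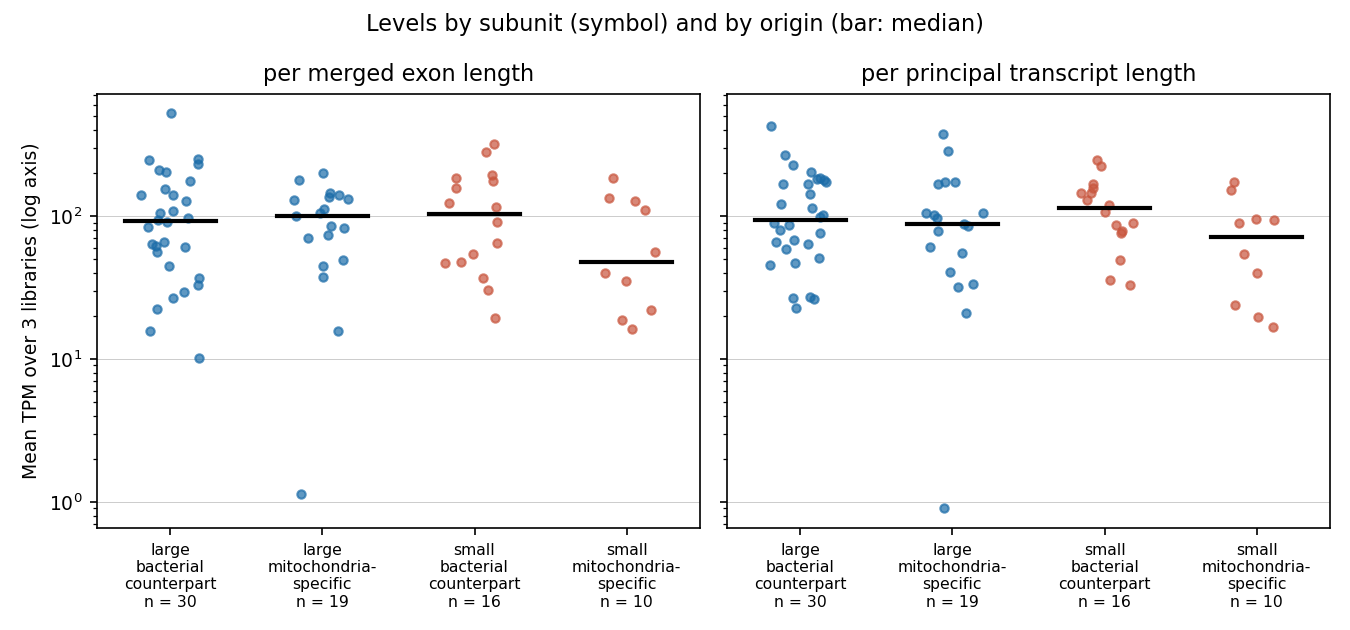
Mean TPM (log axis) of each gene over 3 libraries, by subunit (symbol) and origin, per merged exon length (left) and per principal transcript length (right); each point is a gene and the bar is the median. The small-subunit genes that are mitochondria-specific have the lowest median on both scales, and Mrps18a, Mrps18b and Mrps36 are in neither class of origin and are not shown.

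Much of the order of levels went with the length by which fragments were divided. Across the 78 genes TPM and merged exon length had a Spearman correlation of -0.69, against -0.21 across the expressed protein-coding genes, and TPM and coding length one of -0.05. The trend with length was also there for the principal transcript. TPM and principal transcript length had a correlation of -0.35, and TPM per principal length and that length one of -0.55. These correlations are descriptions across genes that share the same libraries, and length enters TPM by construction. The 12 highest genes had a median merged length of 1140 bases and the 12 lowest one of 5730, while the medians of their principal transcripts were 965 and 1165 bases. In 18 of 78 genes the merged length was over 2 times the principal length, and in Mrpl33 it was 15.3 times as long (7326 against 478 bases).

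Ranks therefore moved for some genes when the principal length was used. Mrpl33, a bacterial-type protein of the large subunit, went from 15.7 to 169 TPM and from rank 76 to rank 16. Mrps10 went from 19.2 to 107 TPM, Mrpl13 from 22.5 to 103, Mrpl23 from 10.2 to 50.7 and Mrps9 from 30.4 to 87.1. Of the 59 genes named by the rule of the methods, 13 moved by over 1.5 times: these 5, Mrps18a, Mrpl30 (to 226 TPM), Mrps34 (175), Ptcd3 (114), Phb2 (1072), Tsfm (128), Guf1 (23.1) and Gtpbp10 (13.4). In all, 9 genes moved by 20 ranks or more, and the ranks on the 2 scales had a Spearman correlation of 0.76. Mrpl12 kept the first rank (430 TPM) and Mrpl53 the last (0.90), and the median of the 78 was 91.6 TPM. TPM per principal length was scaled anew, over protein-coding genes, so a gene of equal length on both scales also moved (Mrpl34, 202 to 142 TPM). Changes in TPM between the scales, and the 2 medians, include this shift, while ranks do not.

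**Figure D3:**
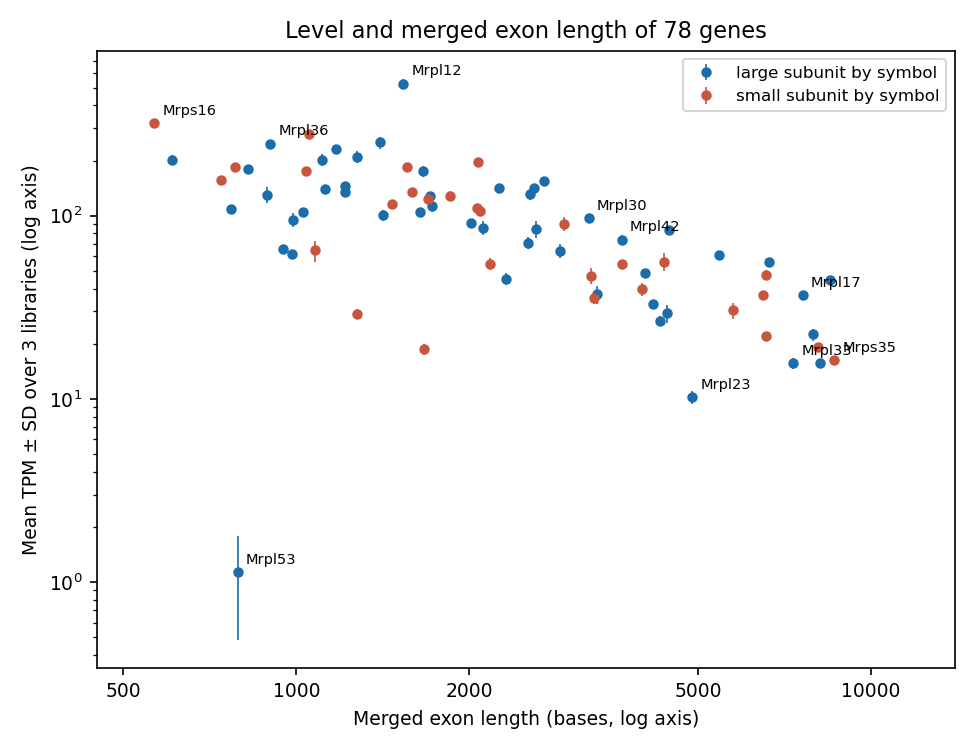
Mean TPM ± SD over 3 libraries (log axis) against merged exon length in bases (log axis) for the 78 genes, coloured by subunit. Levels fall from left to right, with Mrpl12 high and Mrpl53 low for their length.

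Near-identical copies limit what can be said of some low genes. In the annotation, 13 members had a stretch of 100 bases or more with 97% identity or more to another gene, in every case a processed pseudogene, and in 10 of them the copy covered over 90% of the coding sequence. These 10 were Mrpl22, Mrpl23, Mrpl27, Mrpl41, Mrpl48, Mrpl51, Mrps10, Mrps21, Mrps33 and Mrps36. The counting left out fragments that align to several places, so their levels are uncertain. The median was 48.9 TPM for the 13 with a copy and 101 for the other 65 genes, and 5 of the 12 lowest members and 0 of the 12 highest had a copy. Mrpl23-ps1, the copy of Mrpl23, was at 6.21 ± 0.96 TPM, and Mrpl48-ps at 3.07 ± 1.22.

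Between libraries these genes passed a test of equal rates about as often as other expressed genes, while their differences were somewhat smaller. Every gene with 30 or more fragments was tested for equal rates over the 3 libraries by a chi-square test with Benjamini-Hochberg adjustment, which compares libraries and not conditions. Its p-values set the libraries against counting error alone and take fragments as independent molecules, so they are too small as a measure of replicate spread. At an adjusted p under 0.05 and a ratio of 2 or more between the highest and lowest library, 1 of 78 members was called, against 11.0% of the 13688 genes tested and 0.645% of the 9925 expressed protein-coding genes among them. At a ratio of 1.5 or more it was again 1 of 78, against 16.1% and 4.18%. Among the 77 members at 1 TPM or more in every library, 0 were called at either ratio. With no limit on the ratio 60 of 78 (76.9%) passed, against 70.5% and 76.7%, so the members stood near the share of expressed genes. The ratio was under 1.2 in 68 of 78 members, and in 69.5% of expressed protein-coding genes. Its median was 1.12 in the members and 1.14 in those genes, and the median coefficient of variation was 5.52% and 6.93%. The part of the members' higher level in this was not tested.

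The gene called was Mrpl53 (ratio 3.07, adjusted p = 0.016, chi-square test with Benjamini-Hochberg adjustment), highest in replicate 3 and lowest in replicate 2. Its call rests on 48 fragments in all and was lost without replicate 3 and without replicate 4. Among the other 77 members the largest coefficients of variation were those of Mrps18c (13.2%), Mrps26 (11.6%), Mrpl58 (11.5%), Mrpl47 (11.2%) and Mrpl4 (10.3%). Mrps26 was at 49.6, 62.6 and 56.0 TPM and Mrpl4 at 75.4, 92.8 and 85.0, both highest in replicate 3. Mrpl47 was highest in replicate 2 and lowest in replicate 4, at 32.5, 29.3 and 25.9 TPM. The coefficient was under 10% in 70 of 78 members.

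Replicate 3 was most often the highest library. Of the 78 members, 41 were highest in replicate 3, against 33.4% of all genes tested and 34.0% of expressed protein-coding genes. Of the rest, 22 were highest in replicate 2, against 34.6% and 35.7%, and 15 in replicate 4, against 32.0% and 30.3%. The median difference of a member from the mean of the other libraries, in log2 CPM, was 0.06 in replicate 3, -0.04 in replicate 2 and -0.02 in replicate 4. The difference between replicates 3 and 2 had a Spearman correlation of 0.55 with the GC content of the principal transcript across 77 expressed members, and one of 0.60 across 9921 expressed protein-coding genes. Across the same members the correlation was 0.47 for replicate 4 minus replicate 2 and -0.19 for replicate 4 minus replicate 3. The correlations describe genes that share the libraries compared, and the part of GC content in the order of the libraries was not tested. In bulk RNA, a different mix of cells and a different amount of RNA per cell cannot be told apart.

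**Figure D4:**
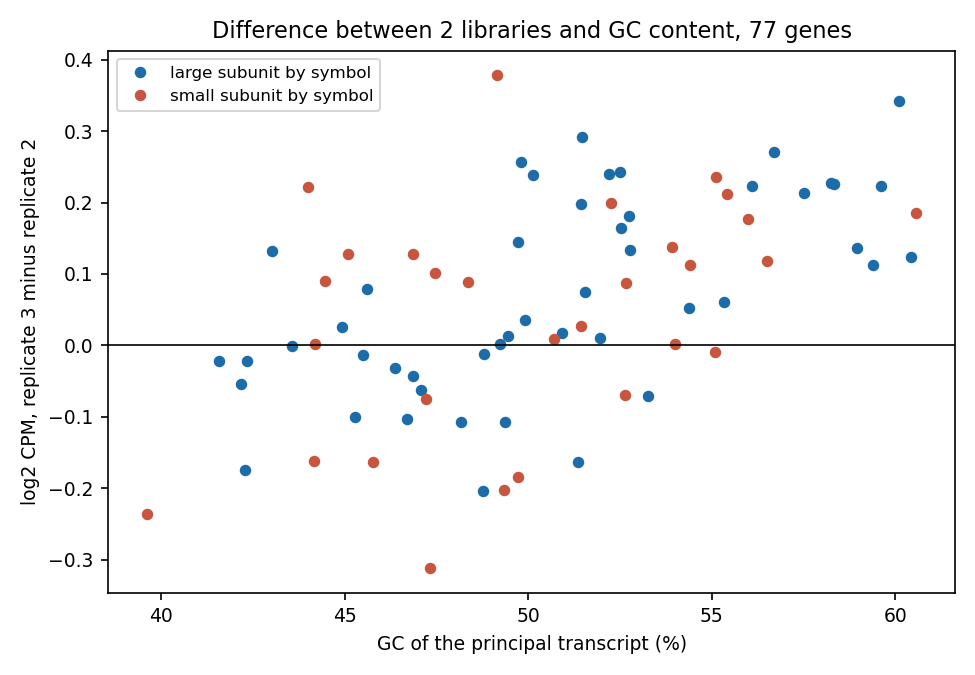
Difference in log2 CPM between replicates 3 and 2 (y axis) against the GC content of the principal transcript in percent (x axis) for the 77 expressed genes. Genes of high GC content lie mostly above 0 and those of low GC content around or below it.

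The rest of the mitochondrial translation machinery was read beside these genes. The 5 mitoribosomal proteins without an Mrp symbol were all in the same range: Chchd1 at 214 ± 14.7 TPM, Aurkaip1 at 167 ± 7.72, Gadd45gip1 at 134 ± 5.99, Ptcd3 at 61.4 ± 5.75 and Dap3 at 59.0 ± 3.30. Chchd1, Aurkaip1, Ptcd3 and Dap3 belong to the small subunit and Gadd45gip1 to the large one. With them counted in, the median was 91.2 TPM. The ribosomal RNAs of the mitochondrial genome, mt-Rnr1 of the small subunit and mt-Rnr2 of the large, were at 349, 298 and 329 TPM and at 431, 370 and 459 TPM. Both were lowest in replicate 3, where the summed level of the 78 genes was highest. The assay label names total RNA while the name of the library protocol refers to polyadenylated RNA, so whether these values show the amount of ribosomal RNA cannot be said.

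The 14 factors that work with the ribosome had a median of 23.1 TPM, and the 78 genes stood 1.94 ± 0.04 above them in median log2(TPM + 1). The highest were Tufm, the elongation factor that brings aminoacyl-tRNA (235 ± 18.3 TPM), Gfm1, the factor of translocation (109 ± 3.19), and Tsfm, the exchange factor of Tufm (75.9 ± 9.37). Tufm binds the ribosome near the stalk that Mrpl12 forms. The lowest were Guf1 (10.9 ± 1.13), the release factor gene Mtrf1 (6.43 ± 1.58) and Pdf (1.77 ± 0.48), which removes the formyl group from new proteins. Of the exon bases of Pdf, 76.6% are shared on the same strand with exons of another gene, so its level is uncertain. By the chi-square test 0 of the 14 were called between libraries at a ratio of 2 or more, against 11.0% of all genes tested and 0.645% of expressed protein-coding genes. At 1.5 or more Mtrf1 and Pdf were called. These 2 of 14 were below the 16.1% of all genes tested and above the 4.18% of expressed protein-coding genes. The call of Pdf rests on 40, 30 and 107 fragments in replicates 2, 3 and 4. With no limit on the ratio 9 of 14 passed, against 70.5% and 76.7%.

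The 31 genes of ribosome assembly and ribosomal RNA modification had a median of 35.2 TPM, 1.38 ± 0.03 below the 78 genes in median log2(TPM + 1). Phb2 (540 ± 29.9 TPM) and Phb (169 ± 7.30), the prohibitins of the inner membrane, and Lonp1 (259 ± 16.0), a protease of the matrix, were highest. Mettl15 (9.70 ± 1.00), Ybey (8.33 ± 0.72) and Gtpbp10 (8.30 ± 0.72), which modify or process ribosomal RNA or help the large subunit mature, were lowest. The 13 genes of mitochondrial transcription and messenger RNA stability had a median of 61.9 TPM. By the chi-square test none of these 31 or 13 genes was called between libraries at a ratio of 1.5 or more, against 16.1% of all genes tested and 4.18% of expressed protein-coding genes. With no limit on the ratio 25 of 31 and 13 of 13 passed, against 70.5% and 76.7%.

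**Figure D5:**
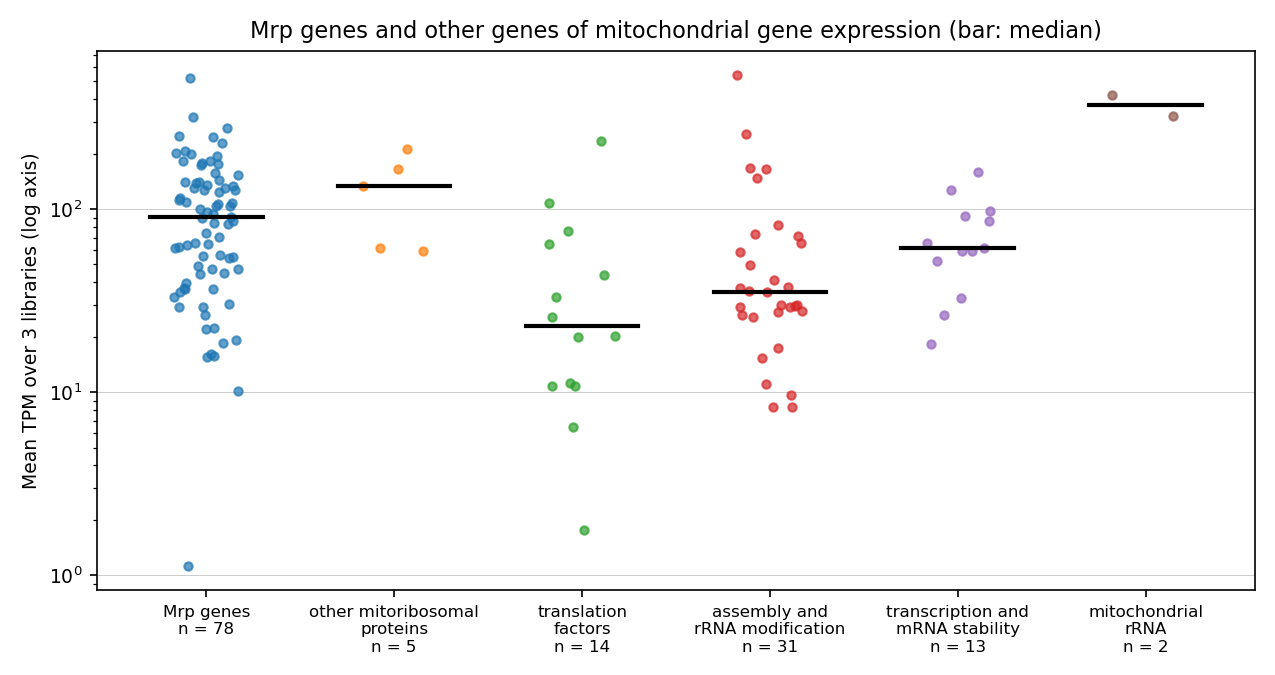
Mean TPM over 3 libraries (log axis) of the 78 Mrp genes, 5 other mitoribosomal protein genes, 14 translation factor genes, 31 assembly genes, 13 transcription and messenger RNA genes and the 2 mitochondrial ribosomal RNAs; bars are medians. The medians of the protein genes run from 23.1 TPM (translation factors) to 134 TPM (other mitoribosomal proteins), with the Mrp genes at 90.8.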

How the data were processed

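RNA of mouse regulatory T cells was sequenced in 3 libraries (1 group). The tables that the authors deposited hold unnormalized counts of fragments, beside each gene's merged exon length; per the file headers, featureCounts 1.4.6-p4 counted pairs with both ends aligned, with strand option 2, over exons of GENCODE M13, and the labels name build mm10. STAR appears only in the name of an alignment file, with no version. The members and lists were chosen with earlier results of these data known.

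TPM was computed here as count over merged exon length. Symbols and biotypes came from GENCODE M21 (50376 of 50600 identifiers matched; the others held 0.00804% to 0.0104% of fragments). Every gene with 30 or more fragments was tested over the libraries by a chi-square test on effective library sizes (edgeR 4.0.16, TMM), with Benjamini-Hochberg adjustment; the quasi-likelihood test has no contrast with 1 group. On simulated counts the test called 100 of 100 genes changed 2.5-fold and 2 of 13483 unchanged genes. These counts held counting error alone, with no spread between replicates, so the rate of calls between real replicates cannot be read from them. Genes with as few fragments as Mrpl53 were not among those changed. Principal transcripts are the APPRIS choices of M21, counted only where they lie in counted exons; 5 members had over 10% of theirs outside. Copies were searched with BLAST+ 2.17.0, and promoter windows are those of RefSeq. Of the transcription list, Prorp was not matched. Roles in the ribosome come from background knowledge.

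Genes were named by a rule: the 6 highest and 6 lowest of each subunit, any under 1 TPM or called, the 6 of highest variation, the Mrps18 paralogues, those at named sites, the 6 nearest divergent pairs, proteins without an Mrp symbol, and the ribosomal RNAs with the 3 highest and 3 lowest genes of 2 lists. Alternatives were leaving out each library, scaling to protein-coding genes, CPM, another pseudocount, the subunit by structure, other member sets, DESeq2 1.42.0 size factors, other count minimums and other distances; principal length, shared bases, copies and overlapping 5′ ends were added after the data were seen.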

Additional observations from a re-analysis of the deposited data

How the results depend on the processing

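No paired analysis was possible because the libraries form 1 group. The median level of the members (90.8 TPM) was 96.7 on the protein-coding scale, 94.5 without 3 members that have an annotated pseudogene symbol, 92.9 without members that share exon bases and 101 without members that have a near-identical copy; leaving out each library gave 89.5 to 91.9. The difference between large and small subunit (0.50) turned to -0.0037 in CPM and to -0.060 with the principal length, and was 0.35 without pseudogene symbols, 0.28 by structure, 0.88 without shared bases and 0.18 without copies; leaving out each library gave 0.46 to 0.59. The interquartile range (1.67) was 1.00 in CPM, 1.58 without pseudogene symbols, 1.63 with the proteins that lack an Mrp symbol, 1.61 with the principal length and 1.61 without copies. The difference by origin (0.12) was 0.0092 without the member under 1 TPM, 0.024 without shared bases, 0.039 without copies and 0.19 with the principal length, and 0.076 to 0.16 when each library was left out. The number of members at 1 TPM or more stayed within 1.5 times in every alternative run (64 to 82). Members called between libraries ranged from 0 to 1 when each library was left out and were 0 without members that share exon bases. Over all genes, 1505 were called, 2355 with a summed count of 10 or more, 2821 with no filter, and 523 to 777 when each library was left out. Members with a divergent neighbour numbered 20, and 35 with overlapping 5′ ends. Few fragments were counted only for Mrpl53 (6, 21 and 21 in replicates 2, 3 and 4). Of its exon bases 88.0% are shared with Gm42688, so low depth and fragments left out of the count cannot be told apart.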
